A study of Homo sapiens with 15 samples.

Results

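Ribosome biogenesis genes were followed across 15 Affymetrix expression arrays of A549, an established human lung adenocarcinoma cell line. The set was a list of 46 named genes for RNA polymerase I, its initiation factors and the proteins that process ribosomal RNA and assemble the ribosomal subunits. A gene was represented by 1 probe set carrying its symbol alone, taken outside the class with the suffix _x_at where possible and then by the highest mean signal. Of the 46 members, 40 had such a probe set and all 40 passed the filter on low signals, among 19775 genes with a probe set and 16216 genes tested. NOP56, DKC1, DDX47 and BOP1 lay only on probe sets that carry several symbols, and GNL3 and DDX18 on no named probe set, so these 6 members have no value here.

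The 15 arrays formed 5 groups of 3. They were cells without treatment (non-treated), cells given the glucocorticoid dexamethasone for 6 hours, and cells given dexamethasone for 6 hours with a second compound present for 48 hours. The second compound was mifepristone (an antagonist of the glucocorticoid receptor), a match polyamide or a mismatch polyamide. Polyamides are small synthetic ligands of the DNA minor groove, and the title of the series calls the one under study specific for the glucocorticoid response element. All cells grew in F12K medium with charcoal-treated serum, which is depleted of steroids. No label used here states a dose, so the compounds are compared at equal times and at unknown doses. Whether the 3 arrays of a group come from separate cultures is not stated, so the p-values measure the spread between these arrays only. In bulk RNA a lower signal from fewer expressing cells and from less RNA per cell cannot be told apart.

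Ribosomes are made in the nucleolus. RNA polymerase I, brought to the ribosomal DNA by UBTF, by the SL1 complex of TBP-associated factors and by RRN3, transcribes one long precursor. Small nucleolar ribonucleoproteins (snoRNPs) modify it, the small subunit processome and the large subunit factors fold and cut it, and the RNA exosome trims its ends. Many of these genes are known targets of the transcription factor MYC, and the pathway is known to track cell growth.

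Signals below are quantile-normalized, linear and in arbitrary units. Changes are differences of log2(signal + 16), and a fold is taken on that same scale, which understates the change of dim genes. A gene was called at a Benjamini-Hochberg adjusted p below 0.05 in limma, adjusted over 39744 probe sets. The 2% trimmed mean of the deposited signals ran from 87.2 to 147 across the arrays, with all 3 mifepristone arrays at 119 or more. Quantile normalization removes such a difference between arrays, and the signals as deposited keep it. Scaling by the spiked-in controls sets the level of each array by those controls instead. Against dexamethasone alone, spike-in scaling moved the median of all probe sets from 0.01 to 0.40 with mifepristone, from 0.03 to 0.24 with the match polyamide and from 0.02 to 0.08 with the mismatch polyamide. Epithelial and A549 markers were present on every array (KRT18 from 8251 to 9713), although EPCAM ran from 152 to 724 and CDH1 from 122 to 403 across the groups. Of 10 leukocyte, fibroblast and endothelial markers 8 stayed at 31.3 or less on every array, PTPRC, DCN and VWF among them. PECAM1 read 26.8 to 48.0, and COL1A1 had a mean of 230.4 in the match group, 153 in the mismatch group and 106 with dexamethasone alone. The part of EPCAM, CDH1 and COL1A1 in the results was not tested.

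With the match polyamide the ribosome biogenesis genes rose broadly. Of the 40 members, 29 were higher and 0 lower than with dexamethasone alone, against 21.6% of all genes called higher and 17.6% called lower. Among the 7818 genes at least as bright as the dimmest member, 33.6% were called higher and 27.8% lower. The median change of the members was 0.61, against 0.05 over all genes tested, and single members ran from -0.25 to 1.59. The rise ran through each role group. Called higher were 5 of 9 polymerase I genes, 5 of 6 snoRNP genes and 3 of 5 other nucleolar proteins. So were 9 of 13 small subunit factors, 5 of 5 large subunit factors and 2 of 2 exosome subunits. Under the signals as deposited, trimmed-mean scaling and spike-in scaling, 26, 28 and 29 of the 29 kept their call. Over all probe sets 51.5% of calls were higher with the match polyamide, and 75.5% with spike-in scaling.

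With the mismatch polyamide, 21 members were higher and 5 lower than with dexamethasone alone, against 18.0% of all genes called higher and 11.9% lower. Among the genes at least as bright as the dimmest member, 27.9% were called higher and 19.7% lower, so the members called lower are not a larger share than at that brightness. The members' median was 0.27, against 0.07 over all genes. The 5 lower members were DDX10, UTP20, HEATR1, TAF1B and NHP2. With the signals as deposited 18 members were higher and 1 lower, and with spike-in scaling 13 and 1, DDX10 being lower in both. The share of higher calls over all probe sets was 52.5%, and 71.7% with the signals as deposited. The 2 comparisons share the dexamethasone arrays, so their values are set side by side below and no likeness between them is computed.

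**Figure D1:**
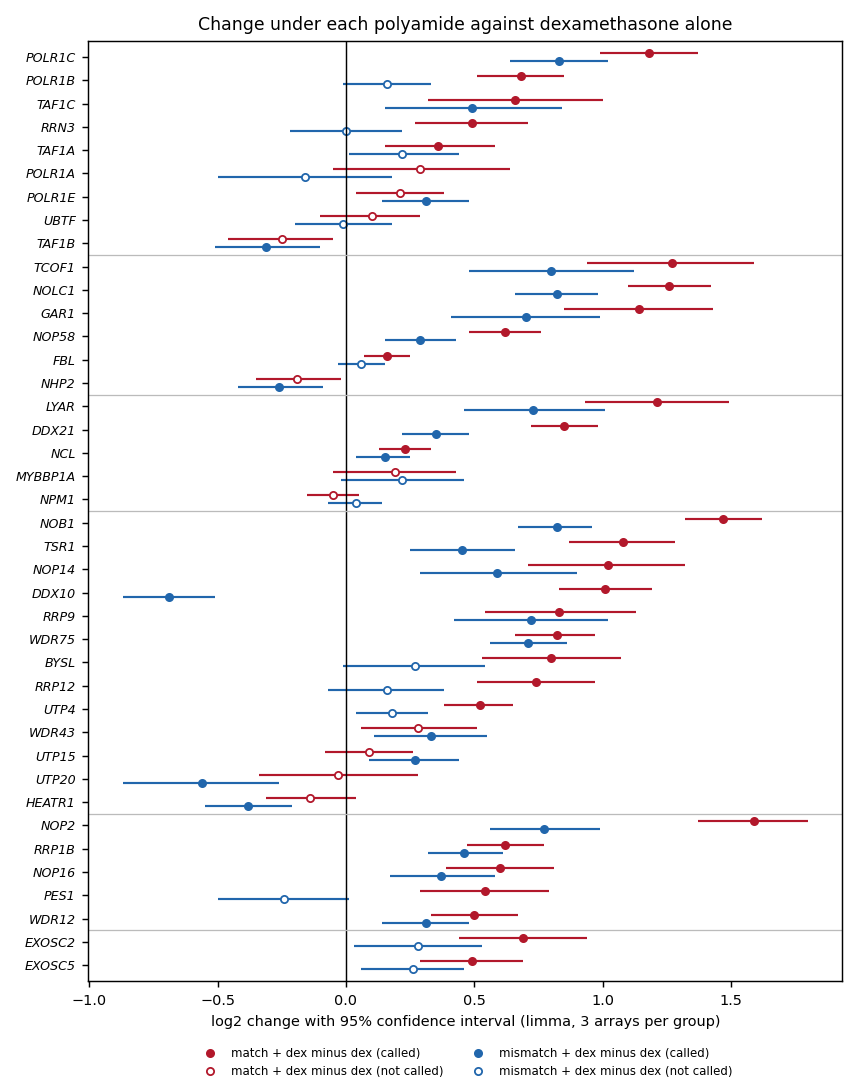
Log2 change of each of the 40 members against dexamethasone alone (x axis), under the match (red) and the mismatch (blue) polyamide, with 95% confidence intervals from limma over 3 arrays per group and grey lines between role groups. Filled points were called at adjusted p below 0.05. Most red points lie to the right of the blue ones, and DDX10 has its points on opposite sides of 0, at 1.01 and -0.69.

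Among the polymerase I genes, POLR1C rose most. It encodes a subunit shared by RNA polymerases I and III. It read 172, 161 and 166 with dexamethasone, 415, 400.2 and 373 with the match polyamide, and 311, 319.7 and 294 with the mismatch polyamide. The 3 groups did not overlap, and the changes were 1.18 (SE 0.09, adjusted p = 3.2e-09) and 0.83 (SE 0.09, adjusted p = 1.1e-06). POLR1B, the second-largest subunit of polymerase I, read 351, 347 and 427 with dexamethasone and 649, 595 and 581 with the match polyamide, a change of 0.68 (SE 0.08, adjusted p = 1.4e-06). With the mismatch polyamide it read 413, 423 and 424, inside the dexamethasone range, a change of 0.16 with a 95% interval from -0.01 to 0.33. The second-largest subunit therefore separated the match arrays from all the others.

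The initiation factors gave mixed calls. RRN3, which makes polymerase I competent to start, read 413, 371 and 397 with dexamethasone, 579, 620.1 and 485 with the match polyamide and 368, 437 and 377 with the mismatch polyamide. It rose by 0.49 (SE 0.10, adjusted p = 9.5e-04) under the match polyamide, and its change under the mismatch polyamide had an interval from -0.22 to 0.22. TAF1C, a subunit of the SL1 complex, read 70.5, 71 and 81.8 with dexamethasone, 101, 128 and 157 with the match polyamide and 148, 90.3 and 102 with the mismatch polyamide. It was called higher under both, by 0.66 (SE 0.16) and 0.49 (SE 0.16), but the mismatch value was 0.31 with an adjusted p of 0.221 when the first mismatch array was left out, and it also missed the threshold without the first or the second dexamethasone array (0.46 and 0.47) and with spike-in scaling (0.52).

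TAF1B, another SL1 subunit, went the other way. It read 238, 265 and 223 with dexamethasone, 206, 185 and 210.2 with the match polyamide and 174, 203 and 201 with the mismatch polyamide. The mismatch change was -0.31 (SE 0.10, adjusted p = 0.0291), and the match change of -0.25 missed the threshold (adjusted p = 0.0595). The mismatch call was lost, at -0.24, without the first mismatch array or without the second dexamethasone array, and it was also lost without the first dexamethasone array (-0.32), with the signals as deposited (-0.14) and with spike-in scaling (-0.23). UBTF, the factor that keeps ribosomal DNA open, was not called under either polyamide, at 0.10 and -0.01, and neither was the largest subunit POLR1A, at 0.29 and -0.16.

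The snoRNP group held some of the largest changes. NOLC1, a nucleolar phosphoprotein that carries snoRNPs, read 1007, 1056 and 1109 with dexamethasone, 2482, 2518 and 2645 with the match polyamide and 1771, 2202 and 1682 with the mismatch polyamide. It rose by 1.26 (SE 0.08, adjusted p = 8.1e-11) and 0.82 (SE 0.08, adjusted p = 1.1e-07), with no overlap between the 3 groups. TCOF1, which encodes treacle, the partner of UBTF and polymerase I in the nucleolus, read 131, 104 and 148 with dexamethasone, 264, 348 and 379 with the match polyamide and 247, 253 and 199.5 with the mismatch polyamide. Its changes were 1.27 (SE 0.15) and 0.80 (SE 0.15). Another TCOF1 probe set, of similar mean signal (192 against 195), was called higher under the match polyamide, by 0.64 (SE 0.12). Its mismatch change of 0.20 (SE 0.12, limma adjusted p = 0.262) was not called. The mismatch rise of TCOF1 was thus called only on the probe set taken here. The remaining TCOF1 probe set, far dimmer, read lower under both polyamides and was not called.

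Calls differed among the core snoRNP proteins, also within a class. GAR1, of the box H/ACA class that makes pseudouridine, rose from 369, 398 and 463 to 948, 946 and 864 with the match polyamide, by 1.14 (SE 0.14), and to 611, 884 and 565 with the mismatch polyamide, by 0.70 (SE 0.14). NHP2, of the same class, read 3191, 3984 and 3563 with dexamethasone, 2930, 3020 and 3476 with the match polyamide and 3137, 2778 and 3043 with the mismatch polyamide. Its mismatch change of -0.26 (SE 0.08, adjusted p = 0.0243) was the smallest of the 5 called falls and did not hold with the signals as deposited (-0.02) or with spike-in scaling (-0.12), nor without the second mismatch array (-0.21), the second dexamethasone array (-0.18) or the third (-0.26, adjusted p = 0.0574). NOP58, of the box C/D class that guides ribose methylation, was higher under both polyamides, by 0.62 and 0.29, the second call being lost with spike-in scaling. The methyltransferase FBL, whose dexamethasone signals were 3957, 3925 and 3794, was called higher by 0.16 under the match polyamide, a call lost with the signals as deposited, with trimmed-mean scaling and without the variance trend.

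Of the other nucleolar proteins, the growth-linked factor LYAR read 186, 129 and 131 with dexamethasone. It read 307, 382 and 399.7 with the match polyamide and 241, 280.4 and 243 with the mismatch polyamide. The groups did not overlap, and the rises were 1.21 (SE 0.13) and 0.73 (SE 0.13). The RNA helicase DDX21 read 1992, 1922 and 1955 with dexamethasone, 3339, 3580 and 3702 with the match polyamide and 2428, 2609 and 2448 with the mismatch polyamide, for rises of 0.85 (SE 0.06) and 0.35 (SE 0.06). The brightest proteins of this group moved little. Nucleolin (NCL) went from 4329, 4072 and 4091 to 4940, 4562 and 5149 with the match polyamide, a called rise of 0.23 that was lost with the signals as deposited. Nucleophosmin (NPM1), at 7768, 7808 and 7628 with dexamethasone, was not called at -0.05 and 0.04 on the probe set taken here, while its other 2 probe sets were called higher under the match polyamide, by 0.22 and 0.32.

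The small subunit factors spread the widest. NOB1, the endonuclease that makes the mature end of the small subunit RNA, read 430.4, 466 and 458 with dexamethasone, 1202, 1343 and 1287 with the match polyamide and 802, 847 and 773 with the mismatch polyamide. It rose by 1.47 (SE 0.07, adjusted p = 2.7e-12) and 0.82 (SE 0.07, adjusted p = 4.3e-08), with wide gaps between the groups. TSR1, which binds the maturing small subunit, rose from 505, 646 and 563 to 1365, 1083 and 1226 with the match polyamide, by 1.08 (SE 0.10), and to 849, 691 and 822 with the mismatch polyamide, by 0.45 (SE 0.10). RRP9, a protein of the U3 snoRNP, read 87.1, 87.9 and 66.8 with dexamethasone, 131, 158 and 180.5 with the match polyamide and 120.2, 169.5 and 142 with the mismatch polyamide. Both polyamide groups lay above the dexamethasone arrays and overlapped each other, with rises of 0.83 and 0.72. NOP14 rose by 1.02 and 0.59, and WDR75 by 0.82 and 0.71.

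Several small subunit factors were called under the match polyamide only, although an absent call is no evidence of no change. BYSL read 241, 296 and 327 with dexamethasone and 486, 515 and 529.5 with the match polyamide, a rise of 0.80, while its mismatch change of 0.27 had an interval from -0.01 to 0.54. RRP12, an export factor, rose by 0.74, with a mismatch interval from -0.07 to 0.38. UTP4 rose by 0.52, with a mismatch change of 0.18 (adjusted p = 0.0533). For BYSL, RRP12 and UTP4 the match arrays were also called higher than the mismatch arrays, by 0.53, 0.58 and 0.34. Called higher under the mismatch polyamide only were UTP15 (0.27, match 0.09) and WDR43 (0.33, match 0.28). Among the polymerase I genes the same held for POLR1E (0.31, match 0.21). The mismatch calls of UTP15, WDR43 and POLR1E were lost with the signals as deposited and with spike-in scaling.

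UTP20 and HEATR1, 2 very large scaffold proteins of the small subunit processome, were called lower under the mismatch polyamide only. UTP20 read 182, 147 and 154 with dexamethasone, 178, 122 and 176 with the match polyamide and 125, 85.7 and 102 with the mismatch polyamide. Its mismatch change was -0.56 (SE 0.15, adjusted p = 0.00773), and -0.45 with an adjusted p of 0.0536 without the second mismatch array, and the call was lost with the signals as deposited (-0.43) and with spike-in scaling (-0.51). HEATR1 read 590.4, 669 and 659 with dexamethasone, 624, 543 and 574 with the match polyamide and 538, 496 and 433 with the mismatch polyamide, a mismatch change of -0.38 (SE 0.08, adjusted p = 0.00194). The HEATR1 call was lost with both of those scalings. Of its 4 other probe sets 3 were tested, and none was called in limma, at -0.28, -0.36 and -0.68 (adjusted p from 0.0581 to 0.212). Against the mismatch arrays the match arrays were called higher for UTP20, by 0.54 (a call lost with the signals as deposited and without the first or the last match array or the second mismatch array), and not for HEATR1, at 0.24 with an adjusted p of 0.0506.

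The large subunit factors included the largest rise of the set. NOP2, a methyltransferase of the large subunit RNA, read 457, 358 and 401 with dexamethasone, 1136, 1373 and 1233 with the match polyamide and 681, 754 and 667 with the mismatch polyamide. It rose by 1.59 (SE 0.10, adjusted p = 2.0e-10), 3-fold, and by 0.77 (SE 0.10, adjusted p = 1.0e-05). RRP1B, a nucleolar protein, read 1135, 1108 and 1230 with dexamethasone, 1697, 1868 and 1796 with the match polyamide and 1636, 1610 and 1556 with the mismatch polyamide. It rose by 0.62 and 0.46. NOP16 rose by 0.60 and 0.37, the second call being lost with spike-in scaling, without the variance trend and without the first dexamethasone array. WDR12 and PES1 belong to one complex (PeBoW, with BOP1). WDR12 rose by 0.50 and 0.31, the second call being lost with spike-in scaling, whereas PES1 rose by 0.54 under the match polyamide and was at -0.24 (interval from -0.50 to 0.01) under the mismatch polyamide. Both exosome subunits rose under the match polyamide. EXOSC2 read 281, 307 and 247 with dexamethasone, 501, 456 and 416 with the match polyamide and 403, 277 and 352 with the mismatch polyamide. EXOSC5 read 516, 559 and 558, then 754, 733 and 832, and 659.6, 627 and 673 in the same order. The match rises were 0.69 and 0.49 without overlap, and the mismatch changes of 0.28 and 0.26 were not called.

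**Figure D2:**
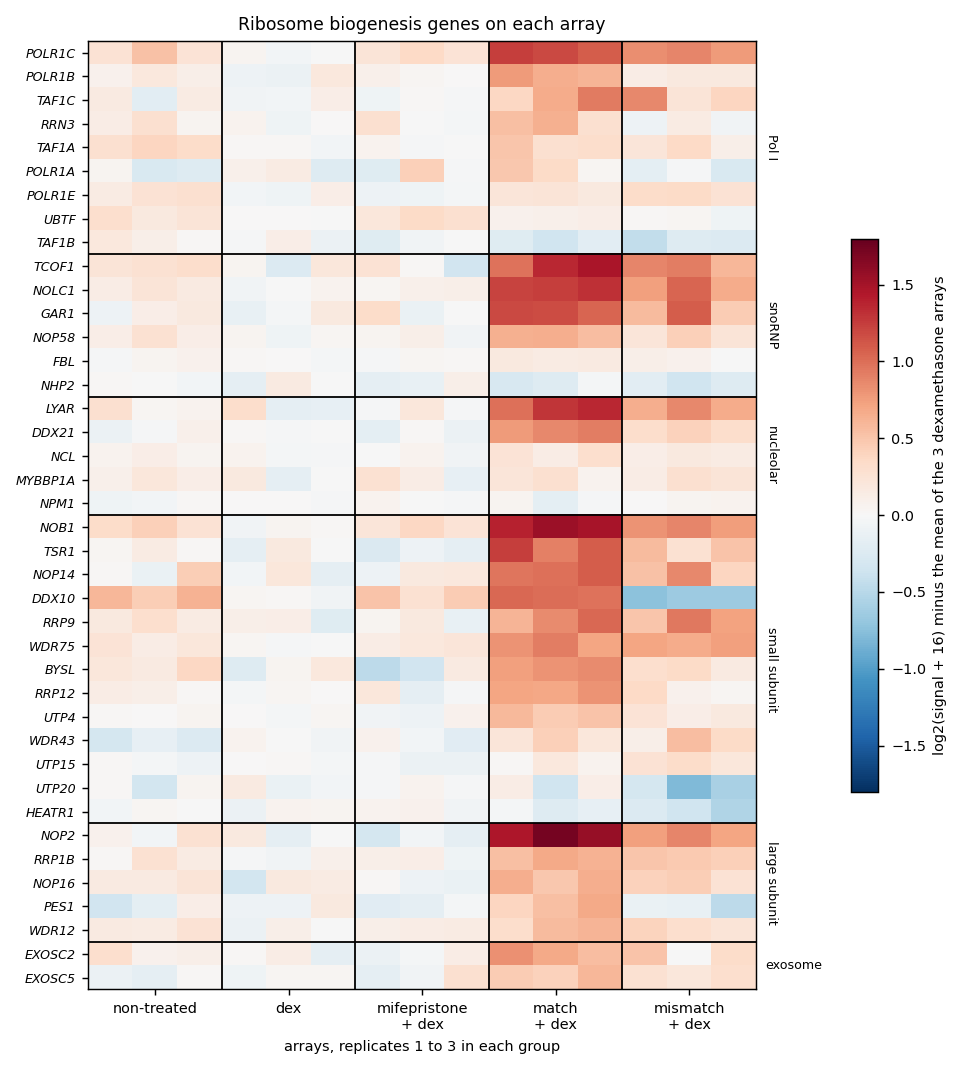
Log2(signal + 16) of the 40 members (rows, by role and then by match change) on each of the 15 arrays (columns, by group), minus the mean of the 3 dexamethasone arrays. The match columns are red for most genes, with NOP2 deepest at a mean change of 1.59, and the DDX10 row is red in the match columns and blue in the mismatch columns.

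Set directly against the mismatch polyamide, the match polyamide gave called rises for many members and called falls for none. Of 40 members, 19 were called higher and 0 lower, against 9.48% of all genes called higher and 13.6% lower. The median difference was 0.33 for the members and -0.02 for all genes. The difference was above 0 for 35 of the 40. It was below 0 for POLR1E (-0.10) and UTP15 (-0.17), among others, and neither was called. Other POLR1E probe sets gave 0.40 and -0.07 and the other UTP15 probe set 0.09, none of them called. The largest differences were those of DDX10 (1.69), NOP2 (0.82), PES1 (0.78), NOB1 (0.65) and TSR1 (0.63). Members near 0 included WDR75 (0.11, interval from -0.05 to 0.26) and RRP9 (0.11, interval from -0.19 to 0.41). The calls depend on the scaling. With the signals as deposited, 3 of the 19 kept their call and the median was 0.14, and with spike-in scaling 14 kept it and the median was 0.45. Over all probe sets, 44.3% of calls were higher with the match polyamide, a share of 18.0% with the signals as deposited and 75.0% with spike-in scaling.

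DDX10, an RNA helicase of small subunit assembly, was the only member called in opposite directions by the 2 polyamides. It read 346, 310.4 and 353 in non-treated cells, 230.3, 227 and 214 with dexamethasone, 327, 275 and 314 with mifepristone, 474, 465 and 458 with the match polyamide, and 127, 137 and 136 with the mismatch polyamide. The match arrays lay above all others and the mismatch arrays below all others. Against dexamethasone alone the changes were 1.01 (SE 0.09, adjusted p = 1.2e-08) and -0.69 (SE 0.09, adjusted p = 5.4e-06). The match arrays exceeded the mismatch arrays 3.23-fold, at 1.69 (SE 0.09, adjusted p = 1.1e-10), a difference still called with the signals as deposited and with spike-in scaling. The value rests on 1 probe set, since the other DDX10 probe set, with a mean signal of 4.08, did not pass the filter.

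**Figure D3:**
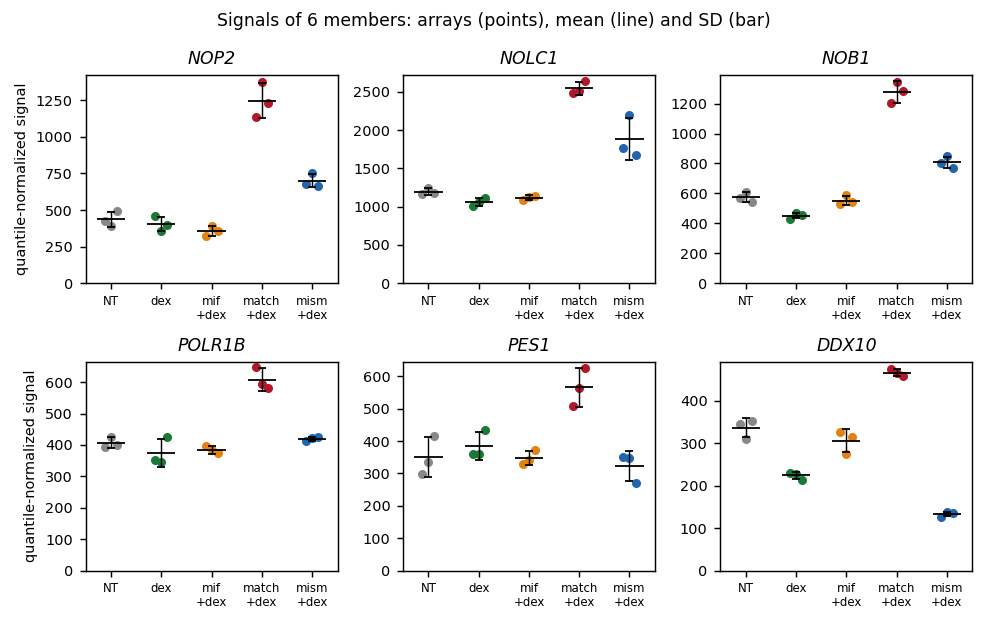
Quantile-normalized signal (y axes, linear from 0) of 6 members on each array, with the group mean (line) and SD (bar). Groups are non-treated (NT), dexamethasone (dex), and dexamethasone with mifepristone (mif), match or mismatch (mism) polyamide. NOP2 reaches 1136 to 1373 in the match group, and DDX10 is highest there (458 to 474) and lowest in the mismatch group (127 to 137).

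Dexamethasone itself changed few members. Against non-treated cells 0 members were higher and 3 lower, while 3.23% of all genes were called higher and 3.63% lower. Among the genes at least as bright as the dimmest member, 5.19% were called higher and 6.17% lower. The 3 lower members were DDX10 at -0.55 (SE 0.09, adjusted p = 2.3e-04), POLR1C at -0.35 (SE 0.09, adjusted p = 0.0286) and NOB1 at -0.34 (SE 0.07, adjusted p = 0.0044). POLR1C read 203, 247 and 199.8 without treatment. For each, all 3 dexamethasone arrays lay below all 3 non-treated ones. None of the 3 was called with the signals as deposited or with spike-in scaling, and POLR1C missed the threshold when any dexamethasone array or the second non-treated array was left out (-0.37 to -0.26). The median over the members was -0.12, against -0.04 over all genes. Over all probe sets 52.8% of calls were higher with dexamethasone, and 69.3% with the signals as deposited.

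Adding mifepristone to dexamethasone left most members near the dexamethasone level, with 2 higher and 0 lower against 2.55% and 2.78% of all genes, and a median of 0.01. Among the genes at least as bright as the dimmest member, 4.41% were called higher and 4.59% lower. The 2 higher members were DDX10, by 0.42 (SE 0.09, adjusted p = 0.00539), and NOB1, by 0.28 (SE 0.07, adjusted p = 0.0276). NOB1 read 570.5, 611 and 546 without treatment, 430.4, 466 and 458 with dexamethasone and 528, 588 and 539.9 with mifepristone. Both comparisons share the dexamethasone arrays, so a low value there lowers the first change and raises the second. The NOB1 call was lost without the second or the third mifepristone array (0.23 and 0.30) or without any 1 dexamethasone array (0.25 to 0.30). The count of members called higher was 16 with the signals as deposited and 25 with spike-in scaling, where the median of all probe sets was 0.35 and 0.40 and the share of higher calls 97.2% and 98.3%, in place of 45.3%.

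Set against mifepristone, 31 members were higher and 0 lower with the match polyamide (21.2% and 18.1% of all genes), and 22 higher and 4 lower with the mismatch polyamide (17.2% and 12.5%). The 4 were UBTF, HEATR1, UTP20 and DDX10, the last at -1.11 (SE 0.09). These counts turn on the level given to the mifepristone arrays. With the signals as deposited they were 11 higher and 4 lower for the match polyamide and 2 and 4 for the mismatch polyamide, and with spike-in scaling 11 and 1, and 1 and 9. Over all probe sets the share of higher calls fell from 51.0% to 11.7% and 21.2% for the match polyamide under these scalings, and from 51.1% to 13.5% and 5.93% for the mismatch polyamide. Of the 31 members called for the match polyamide, 6 changed sign with the signals as deposited. Of the 26 called for the mismatch polyamide, 1 changed sign with the signals as deposited and 6 with spike-in scaling.

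Other probe sets of the same genes gave a second reading. There were 47 further probe sets for the members, of which 42, from 23 genes, were tested. Under the match polyamide 15 were called higher and 0 lower, against 15.9% and 14.9% of all probe sets, and 33 had the sign of the probe set used. Under the mismatch polyamide 9 were higher and 0 lower, against 12.0% and 10.9%, and 31 had the same sign. The second POLR1C probe set gave 1.18 and 0.79, close to the first. For NOP16 the other bright probe set gave 1.07 under the match polyamide in place of 0.60, for MYBBP1A 0.48 (called) in place of 0.19, and for EXOSC2 0.21 (not called) in place of 0.69.

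Further genes of the pathway, listed by their known roles, were examined the same way. These lists were made with earlier results of these data known, so their counts are description and no independent support. Across these lists 149 genes were tested, with 104 higher and 5 lower under the match polyamide, and 68 higher and 5 lower under the mismatch polyamide. These counts stand against 21.6% higher and 17.6% lower over all genes with the match polyamide, or 33.6% and 27.8% over the brighter genes, and against 18.0% and 11.9% over all genes with the mismatch polyamide. Of 46 other large subunit factors 39 were higher and 0 lower with the match polyamide. Among them WDR74, an assembly factor of the early large subunit, rose by 1.25 and PELP1 by 1.12. Of 39 other small subunit factors 32 were higher and 2 lower. UTP14A rose by 1.28 and NGDN by 1.04, while NOL10 (-0.61) and AATF (-0.21) fell. Of 8 other polymerase I genes 6 were higher, led by POLR1G (1.28) and POLR1D (1.04). With spike-in scaling these 3 lists counted 39, 34 and 6 higher and 0 lower in each, and with the signals as deposited 31, 24 and 4 higher and 0, 1 and 0 lower.

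RNA polymerase III, which makes the 5S ribosomal RNA and transfer RNAs, had 11 of 20 genes higher and 1 lower with the match polyamide. That is 55.0% higher, against 33.6% of the brighter genes. POLR3C rose by 0.98 and POLR3D by 0.87, and GTF3C6 fell by 0.24, a call lost with spike-in scaling and with the signals as deposited. The other snoRNP proteins had 5 of 11 higher, or 45.5% against 33.6% of the brighter genes, with RUVBL1 at 0.82 and ZNHIT3 at 0.49. The other exosome and processing nucleases had 4 of 12 higher and 1 lower, or 33.3% higher, near the share of the brighter genes, with EXOSC8 at 0.83, DIS3 at 0.73 and the helicase MTREX at -0.53, where spike-in scaling left 0 lower. Of 3 genes of the branch that links ribosome assembly to p53, 2 were higher with the match polyamide and 3 with the mismatch polyamide. Of the brighter genes 33.6% and 27.9% were called higher, and 3 genes are too few to set against such shares.

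In the MYC network 5 of 10 genes were higher and 1 lower with the match polyamide, and 3 higher and 1 lower with the mismatch polyamide. With the match polyamide 33.6% of the brighter genes were called higher and 27.8% lower, and with the mismatch polyamide 27.9% and 19.7%. The mismatch share of the network, 30.0% higher, is near that of the brighter genes, and 10 genes are few to set against such shares. MYC itself had a mean signal of 1067 with dexamethasone, 1839 with the match polyamide and 1034 with the mismatch polyamide. It rose by 0.77 (SE 0.08, adjusted p = 8.9e-08) under the match polyamide, its mismatch change of -0.05 had an interval from -0.20 to 0.11, and the 2 polyamides differed by 0.82 (SE 0.08, adjusted p = 2.6e-07). Its antagonists MNT and MXD1 also rose, by 1.05 and 1.00, and MXD3 fell by 0.65 with overlapping arrays, a call lost with the signals as deposited and with spike-in scaling.

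The members' mean scaled level (each gene scaled to mean 0 and SD 1 over the arrays, then averaged) lay between 1.04 and 1.17 on the match arrays, between -0.03 and 0.32 on the mismatch arrays and between -0.61 and -0.13 on the other 9. NOB1 (r = 0.97), NOP2, NOLC1 and DDX21 (each 0.96) followed the mean of the other members most closely over the 15 arrays. TAF1B (-0.59), NHP2 (-0.54) and HEATR1 (-0.41) correlated negatively with it. Among 16176 genes outside the set, those most like the members' mean profile were GPATCH4 (r = 0.993), ESRRA (0.985), GARS1, EIF3J and CARS1 (each 0.984). The 15 points of each correlation share their group differences, and the values are given as description only. GPATCH4 had group means of 294 with dexamethasone, 661 with the match polyamide and 419 with the mismatch polyamide.

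The length of a gene went with the polyamide changes over all genes. Of 1134 genes spanning more than 200 kb, 2.82% were called higher and 52.1% lower with the match polyamide, and 1.41% and 45.2% with the mismatch polyamide. Members are of ordinary length, with a median span of 24.9 kb against 26.9 kb over all genes, and 34 of 40 span at most 50 kb. Among those 34 the median match change was 0.64, against 0.14 for the 10887 genes in that range, and the median mismatch change 0.30 against 0.14. Rank correlations of span with change over the 40 members were -0.13 (match) and -0.33 (mismatch), against -0.31 and -0.29 over all genes. DDX10 is the longest member at 276 kb. Its mismatch value of -0.69 lies on the side of most genes over 200 kb (median -0.38), and its match value of 1.01 on the other side (median -0.53). UTP20, the only member between 100 and 200 kb, was at -0.03 and -0.56.

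**Figure D4:**
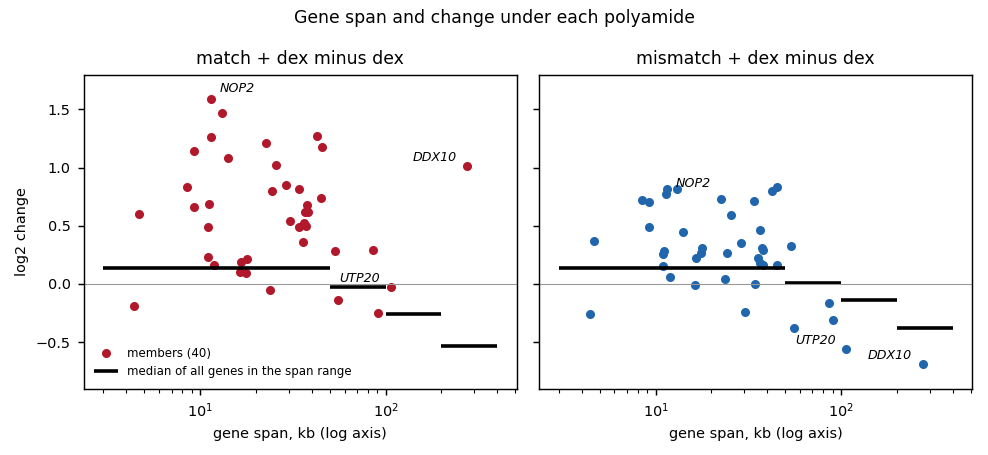
Log2 change of the 40 members (points) against gene span in kb on a log axis, for the match (left) and the mismatch (right) polyamide, with the median of all genes in 4 span ranges as black bars, the last range being open above 200 kb and drawn to 400. DDX10, at 276 kb, lies far above the bar on the left (1.01 against -0.53) and near it on the right (-0.69 against -0.38).

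Promoter sequences were read from RefSeq on build GRCh38.p14, from 250 bases before to 50 bases after a start site, and 38 of the 46 members matched, with 47 promoters. The motifs searched, on both strands, were CACGTG (the E-box bound by MYC with MAX), CCGGAA (a core of ETS factor sites), AGAACA (a partial glucocorticoid response element), TATAAA (the TATA box) and TGACGTCA (the cyclic AMP response element, added after the letters of DDX10 had been seen). CACGTG stood in 31.9% of the member promoters, against 7.26% of 35116 promoters and 8.85% of those of genes tested. CCGGAA stood in 48.9%, against 17.2% and 23.2%. AGAACA stood in 14.9%, against 14.8% and 10.9%. TATAAA stood in 1 member promoter, that of UTP20, or 2.13%, against 11.5% and 7.65%. Over promoters of measured members the median match change was 0.67 for the 14 with CACGTG and 0.50 for the 28 without, and the mismatch change 0.30 and 0.16, with overlapping ranges. The match medians were 0.68 with CCGGAA and 0.29 without (21 promoters each), and 0.54 with AGAACA and 0.52 without. The mismatch medians were 0.27 and 0.22 for CCGGAA, and 0.33 and 0.22 for AGAACA. A gene with several promoters counts more than once here, and a match in letters is not a bound site.

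The sequences below are the 250 bases before the start site, 5′ to 3′ on the strand of the gene, of 5 members that carry contrasts described above and whose window holds no other gene in the RefSeq table. Capitals mark a match to any motif searched except the TATA box, on either strand. TSR1 (chr17:2336458-2336707, minus strand) is shown as a strongly raised member with CCGGAA, and NOB1 (chr16:69754927-69755176, minus strand) as a strongly raised member with none of the motifs. EXOSC5 (chr19:41397360-41397609, minus strand) holds CACGTG and had a smaller match rise, of 0.49. UTP20 (chr12:101279855-101280104, plus strand) holds CACGTG but was not raised, and DDX10 (chr11:108664819-108665068, plus strand) moved in opposite directions.
TSR1: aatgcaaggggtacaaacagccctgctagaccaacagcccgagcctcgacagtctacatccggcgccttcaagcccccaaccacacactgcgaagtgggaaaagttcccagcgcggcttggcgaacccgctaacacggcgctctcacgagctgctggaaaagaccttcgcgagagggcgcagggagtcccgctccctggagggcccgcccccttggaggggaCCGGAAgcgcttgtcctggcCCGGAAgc
EXOSC5: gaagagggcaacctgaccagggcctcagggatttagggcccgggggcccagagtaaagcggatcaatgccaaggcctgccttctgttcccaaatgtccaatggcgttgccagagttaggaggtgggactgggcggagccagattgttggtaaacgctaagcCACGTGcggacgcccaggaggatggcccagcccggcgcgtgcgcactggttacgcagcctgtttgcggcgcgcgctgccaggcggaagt
NOB1: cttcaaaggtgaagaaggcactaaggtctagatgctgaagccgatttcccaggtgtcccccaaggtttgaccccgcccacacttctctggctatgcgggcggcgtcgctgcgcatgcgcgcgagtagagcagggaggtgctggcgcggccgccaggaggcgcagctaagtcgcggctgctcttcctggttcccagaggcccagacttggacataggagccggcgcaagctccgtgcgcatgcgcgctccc
UTP20: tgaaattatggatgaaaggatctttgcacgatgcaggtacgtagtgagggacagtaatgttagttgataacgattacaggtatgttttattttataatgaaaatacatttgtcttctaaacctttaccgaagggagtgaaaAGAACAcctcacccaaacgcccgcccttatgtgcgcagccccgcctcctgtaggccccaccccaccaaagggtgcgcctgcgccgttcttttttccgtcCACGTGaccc
DDX10: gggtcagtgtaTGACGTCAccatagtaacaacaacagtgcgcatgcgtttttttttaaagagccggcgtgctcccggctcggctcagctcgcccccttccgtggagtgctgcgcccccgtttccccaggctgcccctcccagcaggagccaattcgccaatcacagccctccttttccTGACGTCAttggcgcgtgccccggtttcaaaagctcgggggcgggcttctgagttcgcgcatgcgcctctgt
The DDX10 window holds TGACGTCA at 2 places, starting 239 and 72 bases before the start site. It was the only member promoter with this motif, or 2.13% of them, against 1.85% of all promoters and 2.48% of those of genes tested. The UTP20 window holds CACGTG starting 10 bases before the start site and AGAACA 109 bases before it.

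The arrays also carry 3 control probe sets for the large subunit ribosomal RNA, at its 5′ end, middle and 3′ end. As deposited, the 5′ probe set read 2050, 2476 and 2600 in non-treated cells, 1565, 1470 and 2548 with dexamethasone, 4123, 4241 and 802 with mifepristone, 6496, 6321 and 7698 with the match polyamide and 4055, 3810 and 5233 with the mismatch polyamide. All match arrays lay above all others, while 2 mifepristone arrays lay among the mismatch arrays and the other was the lowest of all. The match polyamide against dexamethasone gave 1.91, 3.75-fold, with an exact two-sided permutation p of 0.1, the smallest that 3 against 3 arrays allow. The mismatch polyamide gave 1.25, also without overlap and with an exact p of 0.1. All 6 polyamide arrays against the other 9 gave 1.31 with an exact permutation p of 0.0024, and 8.0e-04 after quantile normalization. This test pools 2 compounds and moves single arrays between the 5 groups, so its p does not measure a spread between treatments. The mismatch arrays against the mifepristone arrays gave 0.83 as deposited, with overlap and an exact permutation p of 0.6.

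The middle of the same RNA gave smaller differences. There the match change was 0.16 and the mismatch change 0.28, with overlapping arrays and exact permutation p of 0.4 and 0.5. All 6 polyamide arrays against the other 9 gave 0.20 with an exact permutation p of 0.162, and 0.19 with 0.0268 after quantile normalization. These pooled p-values have the same limit. After quantile normalization the match arrays all lay above the mifepristone arrays, by 0.33. The 3′ probe set read 62.3 or less on every array. The ratio of the 5′ to the middle probe set ran from 2.85 to 4.03 in the match group, from 1.85 to 2.15 in the mismatch group and from 0.451 to 1.86 in the others. Ribosomal RNA has no poly(A) tail, and how it entered the labelled material was not tested, so these signals are not a level of ribosomal RNA in the cells. Of the mRNA quality ratios, GAPDH 3′ over 5′ stayed between 0.914 and 1.07 on all arrays. ACTB 3′ over 5′ ran from 1.32 to 1.57 without polyamide, from 1.32 to 1.72 in the match group and from 1.41 to 1.99 in the mismatch group, and the part of RNA quality in these signals was not tested.

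**Figure D5:**
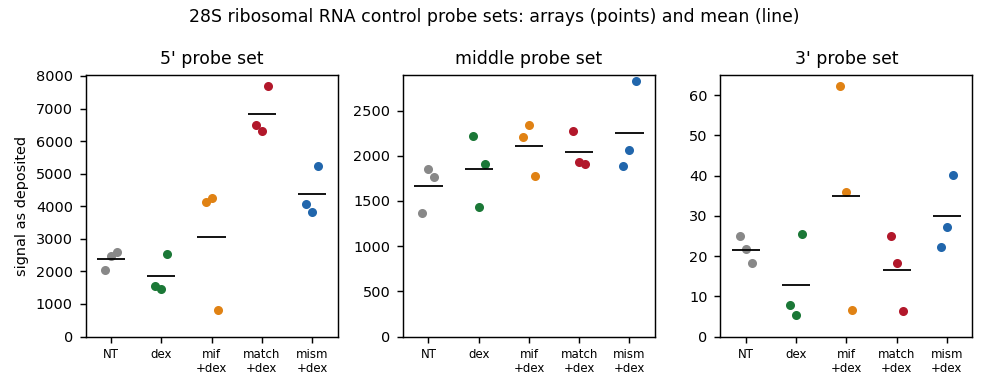
Deposited signal (y axes, linear from 0, different scales) of the 3 ribosomal RNA control probe sets on each array (points) with the group mean (line), in non-treated (NT) cells and with dexamethasone (dex) alone or with mifepristone (mif), match or mismatch (mism) polyamide. The 5′ signal is highest on the 3 match arrays (6321 to 7698), and the middle and 3′ signals of the groups overlap.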

How the data were processed

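RNA was prepared with Qiagen RNeasy and biotin-labelled, per the labels' protocols. The deposited table gives an array intensity, not log-transformed, for each of 54675 probe sets in each sample, computed by MAS5 according to the submitters' processing notes. Here the intensities were quantile-normalized over all probe sets, controls included, and converted to log2(signal + 16). A probe set was tested if it lay above the 40th percentile of an array on at least 3 of 15 arrays, which kept 39744 (72.7%). limma 3.58.1 in R 4.3.3 was fitted to all 15 arrays with a variance trend and 5 group means, and the procedure was tested on simulated data. P-values were Benjamini-Hochberg adjusted over all tested probe sets. Symbols came from the platform annotation, where 41097 probe sets carry 1 symbol, 1801 several and 11777 none. Ribosomal RNA probe sets were compared by exact permutation tests of mean log2 values. The number of arrays limits the precision. Gene spans and promoters came from RefSeq tables (GRCh38.p14), and span is the length of the gene model.

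The members and gene lists were chosen with earlier results of these data known. Within each role, the 2 called members with the largest rise and the 2 with the largest fall under each polyamide and under dexamethasone were to be described in full, with the 2 largest rises and falls of each other list under the match polyamide and the 5 genes most like the members' mean profile. Other members are named where a contrast turns on them, chosen after their values were seen. Alternatives covered scaling, pseudocount, filter, variance trend, the arrays fitted, a replicate block, the probe set rule and leaving out each array. Replicate numbers did not pair the arrays (median correlation 0.01 between same-numbered arrays).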

Additional observations from a re-analysis of the deposited data

Results flagged for a closer look

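DDX10 is listed because the 2 polyamides moved it to opposite sides of dexamethasone alone. All match arrays lay above and all mismatch arrays below the dexamethasone arrays. This arrangement already places match above mismatch, so the direct test adds no separate support. It gave 1.69 (SE 0.09, limma adjusted p = 1.1e-10). The change was called under both polyamides.

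PES1, of the PeBoW complex, shows the same arrangement. It read 359, 360.4 and 435 with dexamethasone, 508, 564 and 627 with the match polyamide and 351, 349 and 271 with the mismatch polyamide. The direct difference, with the same limit, was 0.78 (SE 0.12, limma adjusted p = 1.1e-04), while the mismatch change alone (-0.24) was not called. The other PES1 probe set, with a mean signal of 4.01, was not tested.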

How the results depend on the processing

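The members' rise under the match polyamide kept its direction under every alternative tried, with 26 to 30 members higher. Of 540 recomputed values of single named members in the comparisons with dexamethasone and between the polyamides, 494 stayed on their side of the threshold, 46 lost the call and 0 changed sign. Those members were mostly taken for the largest called changes, so the count does not speak for smaller ones. FBL, NCL, UTP15 and WDR43, with calls lost under some settings, are outside it. Against mifepristone, called members did change sign, 6 for match as deposited, and for mismatch 1 as deposited and 6 with spike-in scaling. With the signals as deposited, probe sets called numbered 814 for dexamethasone, 8142 for mifepristone, 7978 for match and 3094 for match against mismatch, in place of 1927, 1411, 12252 and 6697. With spike-in scaling they numbered 767 for dexamethasone, 12838 for mifepristone, 4624 for mismatch (main value 9109) and 2847 for match against mismatch. Members lower under dexamethasone went from 3 to 0 under both. Members higher with mifepristone went from 2 to 16 as deposited, 25 with spike-in scaling, and 1 without the variance trend or with only the 6 arrays compared. For mismatch, 13 were higher with spike-in scaling, and the 5 lower became 1 as deposited, 1 with spike-in scaling and 3 without the trend. For match against mismatch 3 were higher as deposited. Against mifepristone, match had 11 higher under both scalings with 4 lower as deposited and 1 lower with trimmed-mean or spike-in scaling, and mismatch had 2 higher as deposited, 1 higher with spike-in scaling and 9 lower with spike-in scaling. Trimmed-mean scaling added 1 lower member for match (main value 0) and 1 for mifepristone (main value 0). The cause was not tested.

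Leaving out each array gave 1 to 2 members higher with mifepristone, 0 to 1 lower with match and 3 to 5 lower with mismatch. With a replicate block, 30 members were higher with match, 23 higher with mismatch and 20 higher for match against mismatch, and the block moved no count by over 1.5 times. Its numbers do not pair the arrays. The 5′ ribosomal RNA change under match was 1.85 after quantile normalization and 2.13 with spike-in scaling. The 3 arrays in each group limit how small a change could pass the test.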
